A study of Homo sapiens with 2 samples.

Results

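The interferon-stimulated effector genes examined here are 44 named genes whose protein products carry out or sustain the antiviral response to interferon. They were chosen by name from a list that covers the OAS, IFIT, IFITM, MX, GBP and PARP families, the ISG15 conjugation system and other typical interferon targets. Probe sets annotated to 1 gene only were found for 43 of the 44, 74 probe sets in all, and 2 more list a member together with another gene. Of these genes, 38 were measured, out of 12688 genes measured on the arrays. STAT2 was not analysed here. The comparison is between 2 stably transfected lines of MDA-MB 231, an invasive human breast cancer line that lacks the estrogen receptor. The vector cells carry the plasmid pIRES2-EGFP alone, and the S100A7 cells carry the same plasmid with S100A7, the gene of the calcium-binding protein psoriasin, inserted. Both lines therefore went through transfection and selection, and whether each is a single clone or a pool is not given in the labels. Total RNA of each line was read on 1 Affymetrix array, with no replicate and no interferon treatment named in the labels, and the series asks which genes S100A7 regulates.

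Interferons are secreted proteins that cells release on sensing viral nucleic acid or damage. Type I and type III interferons act through the kinases JAK1 and TYK2 and a complex that holds IRF9 and binds the interferon-stimulated response element (ISRE) in promoters, whereas type II interferon acts through JAK1 and JAK2 and is tied to the gamma-activated sequence (GAS). Many cancer cell lines are known to express part of this programme without added interferon. The proteins of the targets act in different ways: OAS proteins make a short RNA-like messenger on sensing double-stranded RNA, IFIT proteins bind foreign RNA, IFITM proteins block virus entry at membranes, and ISG15 is attached to other proteins much as ubiquitin is.

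The promoters of these genes are the sequences through which interferon signalling reaches them. RefSeq promoter windows on GRCh38.p14, from 250 bases before to 50 bases after an annotated start, were at hand for 35 of the 44 genes. The ISRE core was searched as GAAA, any 2 bases and GAAA again, and the GAS as TTCNNNGAA, on both strands, and matches of the 2 motifs may overlap. The ISRE core was found for 23 of the 35 genes (65.7%), against 4.38% of all 27305 genes with a window. The GAS was found for 11 of the 35 (31.4%), against 9.38% of all genes. Such a match describes letters in the window and does not show that a factor binds there. The following stretches, 5′ to 3′ on the strand of the gene, are from 3 genes that were at least 2-fold lower in S100A7 cells and hold the ISRE core, from 3 genes of the IFIT family, all below 0 in log2 ratio by smaller amounts, and from DTX3L, at 0.36. Capitals mark the ISRE core on either strand.
ISG15 (chr1:1013337-1013496, plus strand): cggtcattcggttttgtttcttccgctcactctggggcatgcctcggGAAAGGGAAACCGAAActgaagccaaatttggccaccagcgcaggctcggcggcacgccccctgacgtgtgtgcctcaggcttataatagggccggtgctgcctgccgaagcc
ISG20 (chr15:88638856-88639015, plus strand): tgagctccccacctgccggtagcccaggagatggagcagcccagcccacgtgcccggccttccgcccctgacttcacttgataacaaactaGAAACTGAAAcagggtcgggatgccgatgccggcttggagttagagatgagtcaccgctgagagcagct
SAMD9 (chr7:93117980-93118139, minus strand): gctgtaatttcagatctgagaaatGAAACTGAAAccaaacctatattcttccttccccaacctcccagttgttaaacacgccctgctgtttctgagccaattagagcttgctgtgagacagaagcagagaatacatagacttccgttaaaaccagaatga
IFIT1 (chr10:89392463-89392622, plus strand): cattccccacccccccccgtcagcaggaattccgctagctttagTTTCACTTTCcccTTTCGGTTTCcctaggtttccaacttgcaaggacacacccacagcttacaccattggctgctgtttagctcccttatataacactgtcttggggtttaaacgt
IFIT3 (chr10:89327837-89327996, plus strand): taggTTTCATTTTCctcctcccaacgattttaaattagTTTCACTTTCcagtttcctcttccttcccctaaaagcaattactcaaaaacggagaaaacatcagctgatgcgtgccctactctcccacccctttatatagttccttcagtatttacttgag
IFIT5 (chr10:89414488-89414587, plus strand): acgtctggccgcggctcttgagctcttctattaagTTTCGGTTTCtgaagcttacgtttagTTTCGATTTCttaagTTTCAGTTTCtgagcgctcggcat
DTX3L (chr3:122564258-122564357, plus strand): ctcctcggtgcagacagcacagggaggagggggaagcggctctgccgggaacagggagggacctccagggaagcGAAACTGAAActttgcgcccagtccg
The match printed for DTX3L lies at chr3:122564332-122564341 and is also the match in a promoter window of PARP9, which is read in the opposite direction, so the same 10 bases serve as the match of both genes. The next stretches are from genes that had log2 ratios above 0 and hold a GAS. Capitals mark the GAS in all of them and the ISRE core as well in the first 4, where it touches or overlaps the GAS or lies close to it. That of MX1 precedes the last of 3 annotated starts.
PARP14 (chr3:122680739-122680838, plus strand): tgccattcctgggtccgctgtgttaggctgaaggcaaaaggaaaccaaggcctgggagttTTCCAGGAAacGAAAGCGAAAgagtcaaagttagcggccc
IFITM1 (chr11:313950-314049, plus strand): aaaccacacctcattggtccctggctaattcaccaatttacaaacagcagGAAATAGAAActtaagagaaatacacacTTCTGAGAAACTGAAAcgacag
EPSTI1 (chr13:42992242-42992341, minus strand): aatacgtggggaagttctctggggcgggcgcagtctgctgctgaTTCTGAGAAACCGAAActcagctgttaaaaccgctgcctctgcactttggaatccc
MX1 (chr21:41431810-41431909, plus strand): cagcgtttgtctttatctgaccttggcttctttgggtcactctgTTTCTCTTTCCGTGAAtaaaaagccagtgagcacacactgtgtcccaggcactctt
OAS1 (chr12:112906742-112906841, plus strand): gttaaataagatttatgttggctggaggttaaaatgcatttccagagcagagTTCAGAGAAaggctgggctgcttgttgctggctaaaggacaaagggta
IFI35 (chr17:43006684-43006783, plus strand): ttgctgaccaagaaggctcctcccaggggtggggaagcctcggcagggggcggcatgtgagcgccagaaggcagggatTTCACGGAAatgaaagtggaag

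Intensities are MAS5 signals on a linear scale as the authors deposited them. No detection calls were used; instead the 50th percentile of each array (71.0 for vector, 69.0 for S100A7) served as a floor. Probe sets at or above the floor on 1 array or both counted as measured, and lower values were raised to the floor before a ratio was taken. Where this applied to 1 array, the fold is a minimum and is written as at least that size. Each gene is given by its brightest measured probe set unless stated otherwise. Probe sets that read the same gene differed in log2 ratio with a pooled standard deviation of 0.36 over 6465 genes, which is the only error at hand; it holds no spread between cultures. With 1 array a group there is no test and no p-value, and "higher" and "lower" below describe these 2 arrays. Each array read RNA of a whole culture, so a different share of cells with high levels and a different amount of RNA per cell cannot be told apart.

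The interferon-stimulated genes did not share a direction. GBP2 and PARP14 were at least 2-fold higher in S100A7 cells (2 of 38 measured, beside 1.8% of all measured genes). ISG15, SAMD9, OASL and ISG20 were at least 2-fold lower (4 of 38, beside 2.25% of all measured genes). The other 32 did not reach 2-fold on this scale; for OAS1 and RSAD2, each under the floor on 1 array, the fold is a minimum (1.66 and 1.55), and with the floor at the 30th percentile their log2 ratios were 2.15 and -1.83. At 1.5-fold, 8 were higher and 8 lower, beside 8.12% and 10% of all measured genes. Of the 38 log2 ratios 21 were above 0, against 45.8% of all measured genes, and the median was 0.07, against -0.04 over all measured genes. By family, all 4 IFIT genes, both SAMD9 genes and 4 of 5 ISG15 conjugation genes had log2 ratios below 0, and both MX genes, all 3 PARP genes, all 3 IFITM genes and 3 of 4 OAS genes above 0. At 1.5-fold these were 2 IFIT genes, both SAMD9 genes and ISG15 on the lower side, and both MX genes, PARP14, IFITM1 and OAS1 on the higher; OASL was on the lower side. Of the 15 genes with at least 2 measured probe sets, 3 had all of them above 0, 7 had all below 0 and 5 had some on each side. The 7 include the neighbouring genes IFIT2, IFIT3 and IFIT5. This split was not counted over all measured genes, so it has no background share beside it.

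**Figure D1:**
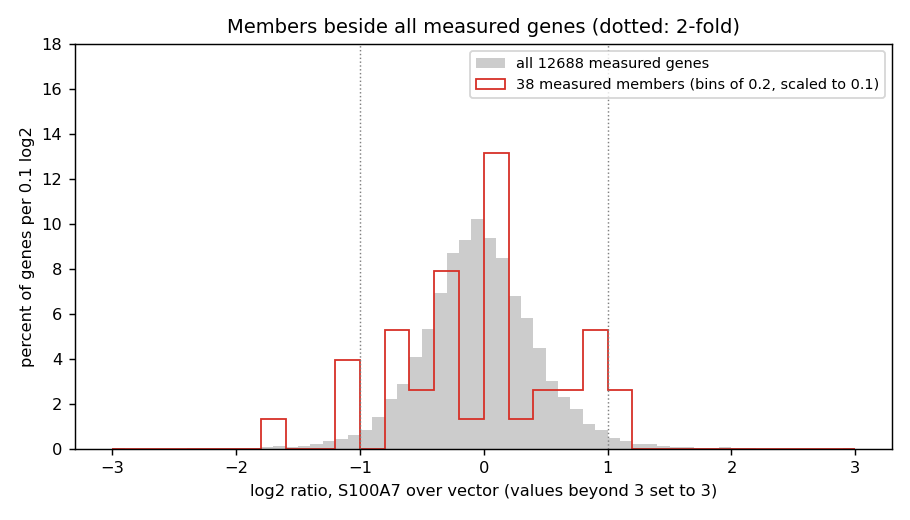
Log2 ratio of S100A7 over vector intensity (x axis) for all 12688 measured genes (grey) and for the 38 measured interferon-stimulated genes (red outline), as percent of genes per 0.1 log2 (y axis). The red outline lies on both sides of 0, with 2 genes beyond 2-fold on the right and 4 on the left.

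In the ISG15 conjugation system the modifier itself was lower, and none of the 4 other genes reached 1.5-fold. ISG15, the ubiquitin-like protein itself, read 5293 in vector and 1604 in S100A7 cells, 3.30-fold lower. It is read by 1 probe set, whose suffix _s_at marks probes that can match several transcripts. HERC5, the main ligase that attaches ISG15 to proteins, read 1351 and 1158, with a log2 ratio of -0.22, or -0.05 after subtracting the median of its chromosomal neighbours. HERC6, its close relative, read 249.7 and 168 (-0.58). USP18, the protease that removes ISG15 and also damps interferon receptor signalling, read 153 and 106 (-0.53). UBE2L6, the conjugating enzyme that passes ISG15 to HERC5, was the 1 member of the system above 0, at 711 and 814 (0.20). The median of the 5 was -0.53. Outside the list, the ligase gene TRIM25 had a log2 ratio of 0.18 and the ligase gene ARIH1 -0.17, while UBA7 was not analysed here.

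The IFIT genes, whose proteins bind viral RNA, all had log2 ratios below 0. IFIT1 read 965 in vector and 574 in S100A7 cells, 1.68-fold lower. IFIT2 read 723 and 439, 1.65-fold lower, and a second probe set 669 and 396 (log2 ratio -0.76). These 2 genes passed 1.5-fold. IFIT3 read 2186 and 1918 (-0.19), with a second probe set at 1141 and 807 (-0.50). IFIT5 read 952 and 809 (-0.23), with its other probe set at -0.43. All 7 measured probe sets of the family were thus below 0, and the median over genes was -0.48.

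The OAS genes encode enzymes that sense double-stranded RNA, and 3 of the 4 had log2 ratios above 0. OAS1 was under the floor in vector cells at 26.0 and read 118 in S100A7 cells, at least 1.66-fold higher. Its other probe set stayed below the floor on both arrays (26.1 and 66.4). OAS3, the largest of the enzymes, read 474 and 700.2 (log2 ratio 0.56), but its other probe set read 99.7 and 55.1, the latter under the floor, at least 1.45-fold lower (-0.53). OAS2 read 91.95 and 104.9 (0.19), near the floor, and its 3 measured probe sets ranged from -0.07 to 0.19, both of the others being bounds from a value under the floor. OASL differs from the others in having no enzyme activity and in carrying ubiquitin-like domains. It was 2.18-fold lower, at 414 and 190.3, and its other probe set, without a shared-transcript suffix, read 283 and 179 (-0.66). The median of the 4 genes was 0.38, and with the floor at the 70th percentile it was 0.01.

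Both MX genes were higher. They encode dynamin-like GTPases that trap viral particles. MX1 read 97.4 in vector and 172 in S100A7 cells, 1.76-fold higher. MX2 read 73.6 and 127, 1.72-fold higher. Each rests on 1 probe set, and the vector value of MX2 was just above the floor of 71.0. With the floor at the 70th percentile neither gene was measured.

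IFITM genes, which encode small membrane proteins that hinder fusion of viruses with the cell, were close to equal on the 2 arrays except IFITM1. IFITM3 read 11294 and 12239.6 (log2 ratio 0.12), and IFITM2 read 7558 and 7970.2 (0.08). IFITM1 read 73.4 in vector and 132 in S100A7 cells, 1.80-fold higher. All 3 are read by probe sets with suffixes for shared probes, and the genes are near-identical over long stretches, so signal may be split among them. A further probe set annotated to IFITM1 and IFITM2 together, and assigned to neither, read 124 and 324. The family median was 0.12, and -0.02 after subtracting the median of chromosomal neighbours.

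**Figure D2:**
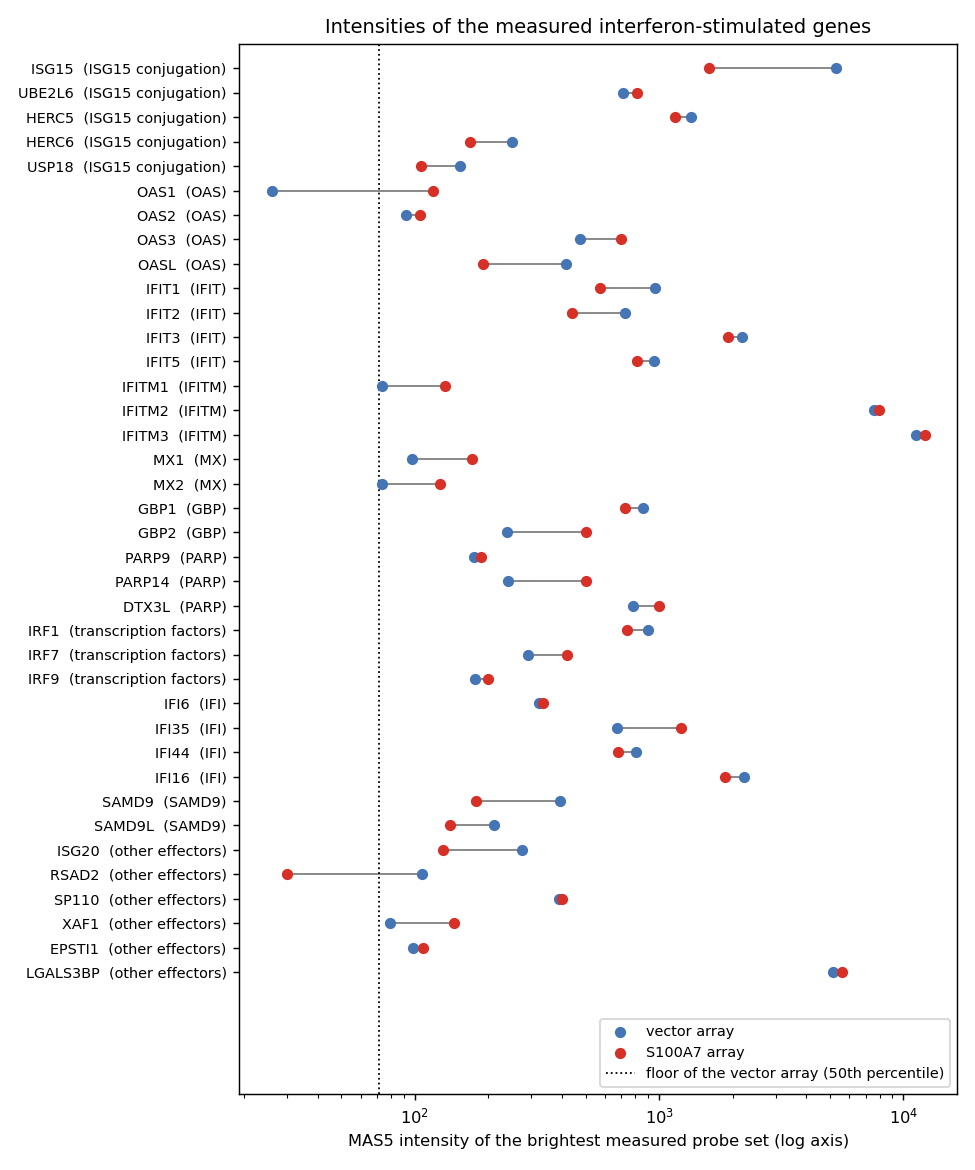
MAS5 intensity (x axis, log scale) of the brightest measured probe set of each of the 38 measured genes (y axis, with subgroup) on the vector array (blue) and the S100A7 array (red), 1 array each; the dotted line is the vector floor of 71.0. ISG15 shows the widest gap among genes above the floor on both arrays, from 5293 to 1604.

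In the PARP group PARP14 alone passed 1.5-fold. It encodes a mono-ADP-ribosyltransferase and read 240.1 in vector and 504 in S100A7 cells, 2.10-fold higher. Its second probe set was below the floor on both arrays (36.1 and 48.8). DTX3L, a ubiquitin ligase that works as a dimer with PARP9, read 780.0 and 997.6 (log2 ratio 0.36). PARP9 read 174 and 187 (0.10), with a second probe set at 0.22 or more. The median of the 3 was 0.36.

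The guanylate-binding proteins, GTPases that attack the membranes around intracellular pathogens, differed from each other. GBP2 read 238 in vector and 503 in S100A7 cells, 2.11-fold higher, and its other probe set read 73.6 and 134 (log2 ratio 0.86). GBP1 read 861 and 723 (-0.25) on its brightest probe set, which carries the suffix _x_at, while its other 2 measured probe sets were at 0.41 and 0.28. GBP1 therefore has no settled direction. GBP3, GBP4 and GBP5, outside the list, had log2 ratios of 0.15, 0.23 and 0.12, those of GBP4 and GBP5 being lower bounds from vector values below the floor.

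The transcription factors of the response were within 1.5-fold. IRF7, which amplifies interferon production, read 291 in vector and 419 in S100A7 cells (log2 ratio 0.53). IRF9, a DNA-binding subunit of the complex at the ISRE, read 176 and 200.0 (0.19), and a probe set it shares with RNF31, assigned to neither gene, read 246 and 220.04. IRF1, a target of both interferon types that also activates target genes itself, read 898 and 737 (-0.29), the companion probe set being at -0.02. The median of the 3 was 0.19, turning to -0.05 without probe sets ending in _x_at or _s_at, where IRF7 drops out.

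Among the genes named IFI, which are unrelated in function, IFI35 was the one past 1.5-fold. IFI35, a leucine zipper protein, read 672 in vector and 1231 in S100A7 cells, 1.83-fold higher. On chromosome 17 its 40 nearest measured genes had a median of 0.37, and IFI35 was 0.51 above them. IFI6, a mitochondrial protein that protects against cell death, read 322 and 335 (0.06). IFI16, a nuclear DNA sensor, read 2225 and 1867 (-0.25), and its other probe sets were at 0.14 and 0.01. IFI44 read 804 and 676 (-0.25), and its other probe set, under the floor in S100A7 cells, was at least 1.63-fold lower (-0.70). IFI27 (7.80 in vector and 8.16 in S100A7 cells) and IFI44L (10.5 and 14.7) were below the floor on both arrays.

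SAMD9 and SAMD9L, neighbouring genes whose proteins restrict poxviruses and slow translation and growth, were both lower. SAMD9 read 394 in vector and 179 in S100A7 cells, 2.21-fold lower, while its other probe set read 138 and 118 (log2 ratio -0.22). SAMD9L read 212 and 139, 1.52-fold lower. Their chromosomal neighbours had a median of -0.34, and SAMD9 was 0.80 below them on the log2 scale, short of 2-fold.

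The remaining effectors spread from lower to higher. ISG20, an exonuclease of RNA, read 274 in vector and 129.8 in S100A7 cells, 2.11-fold lower. Its other probe set was below the floor on both arrays and not lower (13.3 and 15.4). The neighbours of ISG20 on chromosome 15 had a median of -0.37, and after subtracting it the log2 ratio was -0.70. RSAD2 (viperin, which makes a chain-terminating nucleotide) read 107 and 30.1, at least 1.55-fold lower. Its other probe set was below the floor on both arrays and went the other way (24.5 and 52.8). XAF1, an antagonist of the apoptosis inhibitor XIAP, read 78.7 and 144, 1.83-fold higher, with its other measured probe set at 0.78. A further XAF1 probe set was below the floor on both arrays and went the other way (51.5 and 28.4). LGALS3BP, a secreted glycoprotein that binds galectins, read 5146 and 5619.6 (0.13). EPSTI1 read 98.5 and 108 (0.13). SP110, a nuclear body protein, had a log2 ratio of 0.05 on its brightest probe set, while its 5 measured probe sets ranged from -0.86 to 0.28. CMPK2 (33.98 and 24.7), BST2 or tetherin, which holds budding virus at the cell surface (12.0 and 17.1), and TRIM22 (35.5 and 8.99) were below the floor on both arrays.

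**Figure D3:**
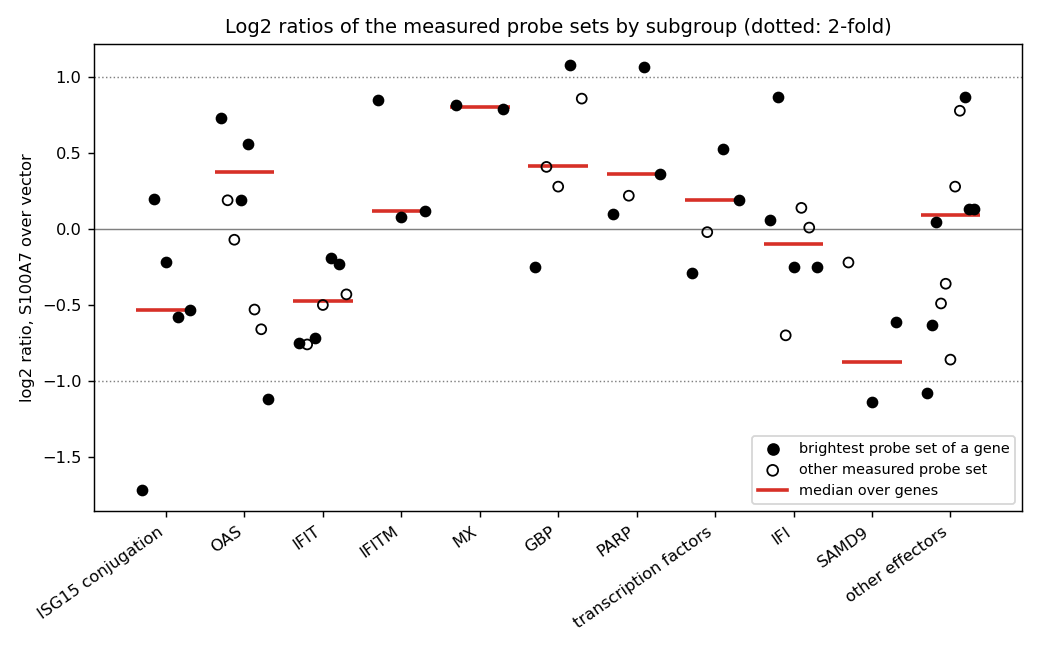
Log2 ratio of S100A7 over vector (y axis) for the 59 measured probe sets of the genes by subgroup (x axis); filled points are the brightest probe set of each gene, open points other measured probe sets, and red lines the median over genes. IFIT and SAMD9 points all lie below 0, and MX, IFITM and PARP points all lie above it.

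Genes that lie side by side mostly had the same sign. Members formed 8 chromosomal groups with at least 2 measured genes, 21 genes in all, and in 7 of the 8 every member was on the same side of 0, the GBP pair being the exception. As a background, 58.0% of the 12647 pairs of adjacent measured genes were on the same side of 0. That share is over pairs and not over whole groups, so it is not the same measure. Some of the signs rest on values inside the pooled standard deviation of 0.36, such as 0.08 for IFITM2 and 0.10 for PARP9. The IFIT genes span 119 kb of chromosome 10 and were all below 0, although their 40 nearest measured genes had a median of 0.27. OAS1, OAS2 and OAS3 span 105 kb of chromosome 12 and were above 0, in a neighbourhood at -0.16. OASL, also on chromosome 12 but outside that cluster, was at -1.12 in a neighbourhood at -0.02. The MX pair on chromosome 21 was higher in a neighbourhood at -0.07, and PARP9, DTX3L and PARP14 on chromosome 3 were above 0 in a neighbourhood at 0. For the SAMD9 pair (-0.34), HERC5 and HERC6 (-0.17) and the IFITM genes (0.14) the neighbourhood had the same sign as the members. Across all 38 genes the neighbourhood medians ran from -0.37 to 0.37. ISG15 lies on chromosome 1 in a neighbourhood at -0.34 and was 1.38 below it on the log2 scale, still past 2-fold.

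**Figure D4:**
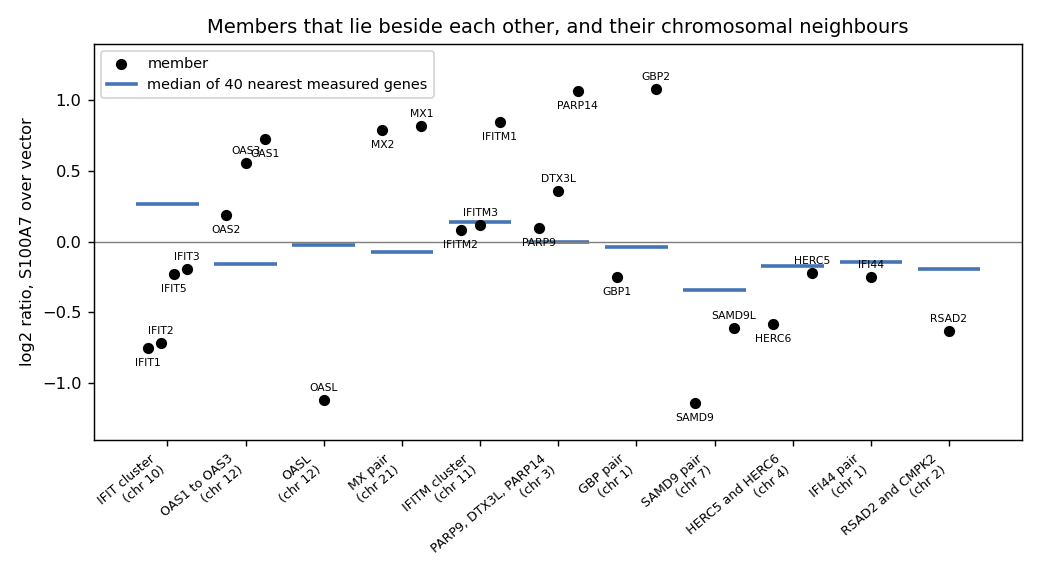
Log2 ratio of S100A7 over vector (y axis) for members grouped with their chromosomal neighbours among the list (x axis, with chromosome). Points are genes, and blue lines the median of up to 40 nearest measured genes outside the list, fewer near a chromosome end. The 4 IFIT points lie below 0 while their neighbourhood lies at 0.27.

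The promoter letters printed above were set beside these values. The 20 measured genes with an ISRE core had 10 log2 ratios above 0 and 10 below, with a median of -0.06; the 10 without had 6 above and 4 below, with a median of 0.12. ISG15 and PARP14, the gene furthest down and one of the 2 furthest up, both hold it. Of all 398 measured genes with an ISRE core in a window, 49.0% were above 0 with a median of -0.02. Of the 9912 without, 46.0% were above 0 with a median of -0.04. The even split of the members was thus near the share over all such genes. Of 9 measured genes with a GAS, 8 were above 0 with a median of 0.73, which is the value of OAS1 and so a minimum, and of 21 without, 8 were above 0 with a median of -0.23. The 9 were PARP14, IFI35, IFITM1, MX1, OAS1, IRF9, EPSTI1, SP110 and IRF1, the last being the 1 below 0. OAS1 counted as measured only through the S100A7 array, and SP110, at 0.05 on its brightest probe set, was at -0.36 by the median over probe sets. As a background, of all 881 measured genes with a GAS in a window, 42.9% were above 0 with a median of -0.06, against 46.4% of the 9429 without, with a median of -0.03. These counts rest on few genes, of which OAS1, IFITM1 and EPSTI1 had signals under 2 times the floor, and the difference was not tested.

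The few members near the floor were mostly above 0. Of the 38 genes, 6 had their higher signal under 2 times the floor; 5 of these were above 0, with a median log2 ratio of 0.46. The 32 others had 16 above and 16 below 0 and a median of -0.07. Over all measured genes the 2159 under 2 times the floor had a median of -0.06, with 43.5% above 0. The 10529 others had a median of -0.03, with 46.3% above 0. Of the 8 genes at least 1.5-fold higher, 3 were in the dim class (OAS1, IFITM1 and MX2), against 1 of the 8 at least 1.5-fold lower (RSAD2). Of all dim genes 6.35% were at least 1.5-fold higher and 10.8% lower, against 8.48% and 9.90% of the others. OAS1 and RSAD2 counted as measured only through the array where they were higher, which fixes their direction. The part of signal near the floor in these values was not tested.

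Lists of 89 other genes of the interferon pathway were also read, of which 65 were measured. These lists hold genes upstream of the members and also 43 further interferon targets, of which 33 were measured. Of the 65, 3 were past 2-fold on the higher side and 1 on the lower, beside 1.8% and 2.25% of all measured genes. The median of the 65 was 0.13, with 36 above 0, beside 45.8% of all measured genes. IFNLR1, SOCS1, GBP4, GBP5, LGALS9, TNFSF10 and DDX60L are among the 36, and their probe sets used here passed the floor only on the S100A7 array. Those of IRF8, DDX60 and CXCL10, all below 0, passed it only on the vector array. The direction of these genes is thus fixed by the filter. The further targets held 2 of the 3 higher genes, the 1 lower gene and 21 of the 36 above 0. No ligand was measured: the 9 interferon genes with probe sets, IFNB1 (2.99 in vector and 4.11 in S100A7 cells) and IFNL1 (43.0 and 61.4) among them, were below the floor on both arrays. All 6 receptor genes were measured and within 2-fold. IL10RB, the chain shared by the receptors of type III interferon and interleukin-10, was 1.93-fold higher, from 429 to 829.6. IFNGR1, the ligand-binding chain for type II interferon, was 1.52-fold higher with both measured probe sets above 0; its neighbours on chromosome 6 had a median of 0.44, and after subtracting it the log2 ratio was 0.16, short of 1.5-fold. IFNAR1 (0.16) and IFNAR2 (-0.02), the type I receptor, were near 0 on their brightest probe sets. Their measured probe sets ranged from -0.37 to 0.64 for IFNAR1 and from -0.02 to 0.43 for IFNAR2. Of the kinases JAK1 was at 0.13, TYK2 at -0.17 and JAK2 at -0.70, 1.62-fold lower. IRF2, which represses interferon targets, was 1.69-fold higher, and IRF3, which starts interferon transcription, was at -0.43. Both feedback inhibitors SOCS1 (0.46, a lower bound, with 1 other probe set at -0.44, a bound the other way) and SOCS3 (0.54, with other probe sets down to -1.18) differed between probe sets.

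Sensors of viral RNA differed in direction. TLR3, the endosomal receptor for double-stranded RNA, read 119 in vector and 297 in S100A7 cells, 2.49-fold higher, with its other measured probe set at 1.09. With the floor at the 70th percentile its log2 ratio was 0.07. RIGI, the cytosolic RNA helicase sensor and itself an interferon target, read 945 and 589, 1.61-fold lower, with its 3 probe sets between -0.68 and -0.51. IFIH1, the related sensor MDA5, was at -0.31, and the adaptor gene MAVS at -0.35. Of 33 measured genes on a list of further interferon targets, PSMB9, an immunoproteasome subunit, was 2.18-fold higher and NLRC5, which switches on MHC class I genes, 2.52-fold. The log2 ratio of NLRC5 was 0.13 with the floor at the 70th percentile, and that of PSMB9 was 0.97 after subtracting its neighbours, just short of 2-fold. DDX60, a helicase that supports RNA sensing, read 165 and 28.9, at least 2.39-fold lower. Among 11 measured genes of a textbook type II interferon list 8 were above 0, beside 45.8% of all measured genes, with a median of 0.20. GBP4, GBP5 and SOCS1 are among the 8, and their probe sets used here passed the floor only on the S100A7 array. CXCL10, below 0, passed it only on the vector array. The direction of these genes is thus fixed by the filter. At least 2-fold higher were 3, GBP2, PSMB9 and ICAM1, beside 1.8% of all measured genes; GBP2 and PSMB9 are already counted above. A list of 7 genes known as the interferon-related DNA damage signature had 6 measured, 2 above 0 and 4 below, and a median of -0.22. Both lists share genes with those above and were chosen with results of these data known, so they are not independent evidence.

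**Figure D5:**
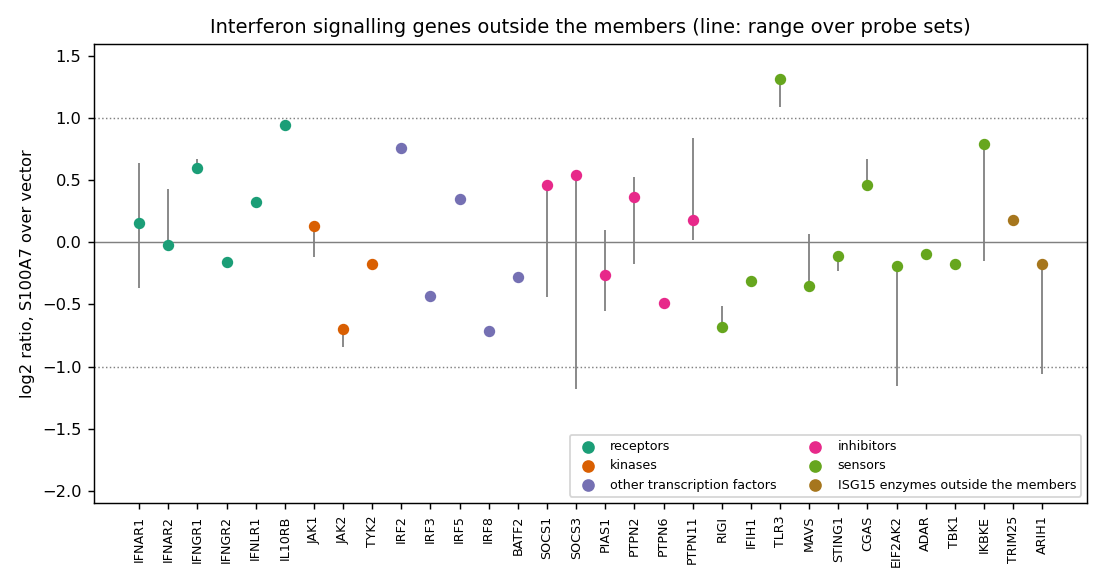
Log2 ratio of S100A7 over vector (y axis) for the measured interferon receptors, kinases, other transcription factors, inhibitors, sensors and ISG15 enzymes outside the main list (x axis); points are the brightest probe set, and grey lines the range over a gene's measured probe sets. TLR3, at 1.32, is the 1 gene shown beyond 2-fold by its brightest probe set.

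The arrays were alike in scale, with a mean of 500.1 on each after trimming 2% at each end. Scaling before deposit may have set this mean, so it is no check of the arrays. S100A7 itself went from 12.0 (vector) to 13232, at least 186-fold higher. The 5 genes listed as high in MDA-MB 231 (VIM, CD44, EGFR, CAV1 and ANXA1) were measured at log2 ratios from -0.47 to 0.16. Of 6 listed as absent there, ESR1, PGR and CDH1 were below the floor on both arrays and KRT19 was near it, while GATA3 (719.7 in vector and 752 in S100A7 cells) and ERBB2 (497 and 539.8) were above it. Of 14 blood and immune cell markers 4 were measured, CSF1R, LAPTM5, CD79A and HBB, at log2 ratios from -0.64 to 0.66, while PTPRC, CD14, CD3E and CLEC4C were below the floor on both arrays. Of 10 fibroblast and endothelial markers 4 were measured, from -0.79 to 0.35.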

How the data were processed

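The authors deposited an intensity for each of 54675 probe sets on each array, made with MAS5 per the submitters' processing notes; no version or scaling target was found in the labels. Cells grew in 10% serum at 37 °C and 5% CO2, and 2 µg of RNA was labelled, per the labels' protocols. Arrays were used as deposited, with no further scaling. Probe sets were named through the platform annotation, and 41037 of the 41091 with 1 gene took current symbols and positions from a RefSeq gene table on GRCh38.p14. A log2 ratio of S100A7 over vector was computed per probe set after raising values to the floor, and "brightest" is the highest mean log2 intensity over both arrays. The neighbourhood of a gene is up to 20 nearest measured genes on each side, members left out. A side cut short by a chromosome end holds fewer, with at least 20 genes required in all. Promoter sequences are from RefSeq. The genes and lists were chosen with earlier results of these data known. All 44 genes are accounted for; of the pathway lists, signalling genes and genes at least 2-fold apart were named, and other names there were chosen after their values were seen. The steps were tested on simulated data. Python 3.11.15, numpy 2.4.6, pandas 2.3.3 and matplotlib 3.10.9 were used.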

Additional observations from a re-analysis of the deposited data

How the results depend on the processing

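Counts at 2-fold rest on few genes, all but ISG15 near the threshold. Against 2 genes higher and 4 lower, there were 0 and 1 with the floor at the 70th percentile, where 24 members were measured. The median over probe sets gave 1 and 2. There were 1 and 1 when at least 2 measured probe sets had to agree. ISG15, PARP14 and ISG20 have 1 measured probe set each, so they could not be counted there. There was 1 higher gene with a pseudocount of 32. Without probe sets ending in _x_at or _s_at there were 2 lower genes, and ISG15 was not measured there. A floor at the 30th percentile gave 3 and 5 of 40, within 1.5 times the main counts. No filter and no floor gave 3 and 6 of 43. Subtracting the median of chromosomal neighbours gave 2 and 3, beside 1.94% and 1.71% of all genes. The 3 lower genes there were ISG15, OASL and IFIT1, the last not among the 4 of the main count. Shares of all genes at least 2-fold higher and lower moved as well. They were 4.05% and 5.84% at the 30th percentile, and 10.4% and 12.8% with no filter and no floor. At the 70th percentile they were 1.10% and 0.98%, and with the median over probe sets 1.36% and 1.81%. With the pseudocount they were 2.61% and 3.35%, and without those suffixes 2.29% and 2.28%. A 1.5-fold threshold gave 8 and 8, and a 3-fold threshold 0 and 1. Shares of all genes were not computed for the 3-fold threshold or for the agreement of probe sets, so the counts there have no background. ISG15 stayed past 2-fold in all 9 alternatives that measured it (-1.73 to -1.38), while GBP2, SAMD9 and OASL did so in 7 of 10, PARP14 in 8 of 10 and ISG20 in 7 of 9. The median of all members lay between -0.07 and 0.11 in the alternatives, so its sign is not settled. Of 108 recomputed subgroup medians 106 moved by less than 0.36; the other 2, with the floor at the 70th percentile, were 0.01 for OAS and -0.48 for SAMD9. The medians of IFIT, SAMD9 and ISG15 conjugation stayed below 0, and those of OAS, MX, GBP and PARP above 0, in the alternatives that measured them. Signs turned for IFITM, transcription factors, IFI and the remaining effectors. The cause was not tested. No paired analysis was possible because each group has 1 array.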
